A study of Mus musculus with 6 samples.

Results

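Collagens and the fibrous proteins that assemble with them were described in RNA sequencing libraries of samples labelled as mouse chondrocytes, of which 3 were control libraries and 3 came from Eldr cKO mice. The genes were the rows of the authors' deposited table whose symbol had the form of a collagen chain (Col, a type number, a and a chain number) or was Fn1, Sparc, Fbn1, Eln, Postn, Tnc, Lox, P4ha1, P4hb, Serpinh1, Plod1 or Plod2. This gave 38 of 12560 genes. They were grouped as 8 fibrillar collagen chains, 4 basement membrane collagen chains of type IV, 14 other collagen chains, 6 fibrous glycoproteins, and 6 enzymes and chaperones that modify collagen. Of 44 collagen chain genes in GENCODE M21, 26 had a row. The title of the series names ELDR as a long noncoding RNA of chondrocyte senescence. The labels gave no Cre driver, age, sex or cell origin for either genotype, and did not say whether a group's libraries were biological or technical repeats. Every p-value here thus rests on spread between libraries, which may be technical. For the limma tests below this was the trend of spread over genes and not a gene's own spread. Eldr itself was not analysed here, so the genotype was not checked on the targeted gene.

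Collagens are trimers of chains whose long Gly-X-Y repeats wind into a triple helix. In the endoplasmic reticulum the chains are hydroxylated on proline and lysine and are held by a dedicated chaperone, and outside the cell lysyl oxidase cross-links the assembled fibrils. Fibrillar types I, III and V build the fibrils of most connective tissues, types II and XI those of cartilage, and type IV builds the sheet of basement membranes. Fibronectin, SPARC, fibrillin, elastin, periostin and tenascin-C bind or organise these fibres.

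Values were FPKM, that is fragments scaled to transcript length and to the mapped fragments of the library, so levels may be compared between genes per length. The libraries were shallow. Steps in the FPKM of weakly detected genes gave an estimated depth of 80090 to 466215 fragments in the controls and 52151 to 193475 for Eldr cKO. Transcripts of the mitochondrial genome took up 41.1% to 70.0% of control FPKM and 33.8% to 43.6% of Eldr cKO FPKM. A set of 7 predicted Gm genes of repeat-rich sequence (Gm10800 the highest) took up 3.05%, 12.8% and 13.4% across control 1 to 3 and 3.82%, 48.5% and 45.8% across Eldr cKO 1 to 3. Of 12 cartilage markers 4 had a row and 0 of these were above 0 in every library. Their summed FPKM was 0 to 3.95 in the controls and 1.59 to 12.5 in Eldr cKO, with Comp, Hapln1 and Cnmd at 0 in at least 4 libraries. The 10 heart muscle markers summed to between 888 and 8938 FPKM in the controls and between 1648 and 7928 in Eldr cKO, so the data went against a pure chondrocyte sample. Fibroblast markers (7 of 8 with a row) summed to 39.8 to 179 FPKM in the controls and 17.1 to 151 in Eldr cKO, with Thy1 and Tcf21 at 0 in at least 4 libraries. Endothelial markers (8 of 8) summed to 15.1 to 183 and 16.2 to 134 FPKM, with Tek at 0 in at least 4 libraries. Smooth muscle and pericyte markers (6 of 7) summed to 59.9 to 376 and 110.0 to 413 FPKM. Osteoblast markers (1 of 6) reached 4.44 FPKM in Eldr cKO 3 and 0 elsewhere, and macrophage markers (6 of 6) summed to 7.18 to 105 and 75.6 to 146 FPKM. In such bulk samples fewer cells of a type and less RNA per cell cannot be told apart.

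Detection followed the 2 deepest libraries. Of the 38 genes, 36 were above 0 in control 1 and 35 in Eldr cKO 1, against 18, 25, 19 and 21 in control 2, control 3, Eldr cKO 2 and Eldr cKO 3. Taking each gene at its longest annotated transcript, the 38 genes together stood on an estimated 768, 75.1 and 180 fragments in the controls and on 611, 71.3 and 84.7 fragments in Eldr cKO. At least 3 estimated fragments lay behind 31, 8 and 9 genes in the controls and behind 26, 7 and 7 in Eldr cKO. Between 2 and 12 genes a library were listed above 0 with less than 1 estimated fragment. A group of 9 genes (Col5a1, Tnc, Col10a1, Col14a1, Col18a1, Col22a1, Col28a1, Col6a1 and Col6a6) was listed at 0 in all of control 2, control 3, Eldr cKO 2 and Eldr cKO 3. The genes above 0 in all 6 libraries numbered 11 of 38, against 12.7% of all rows. The longest transcripts of the 38 genes had a median of 5762.5 bp, against 3336 bp over the tested genes with an annotation.

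**Figure D1:**
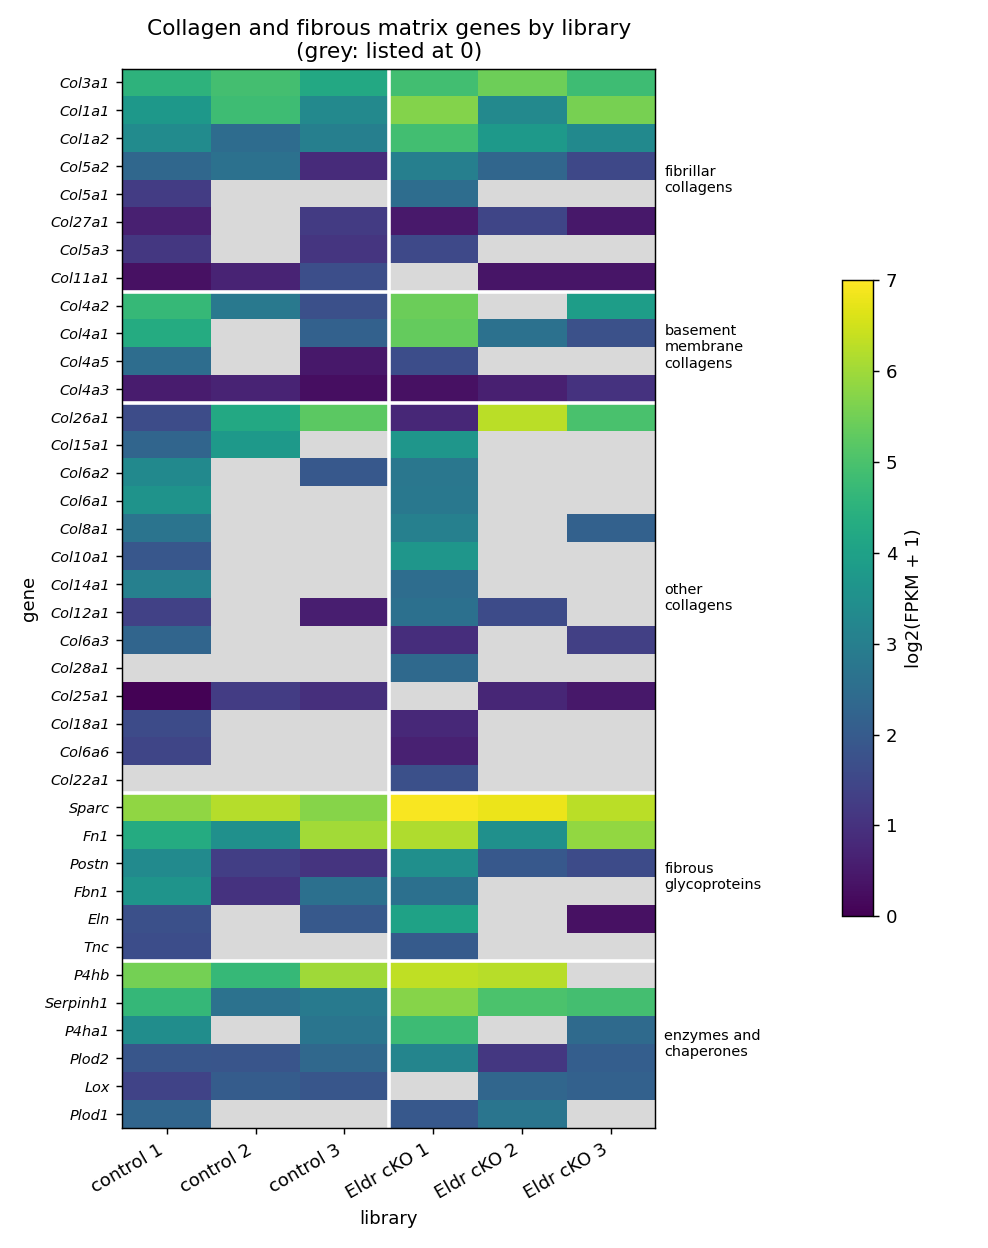
The heat map shows log2(FPKM + 1) for the 38 genes (rows, by class and then by mean FPKM) in the 6 libraries (columns), with grey for a value listed at 0. Control 1 and Eldr cKO 1 had 36 and 35 genes above 0, and Col26a1 was low in these 2 libraries and high in the other 4.

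No gene of this set passed the test between genotypes. The test was limma's two-sided moderated test on log2(FPKM + 1) with Benjamini-Hochberg adjustment, run on the 9007 genes whose mean reached 1 FPKM. Of the 38 genes, 28 passed that filter on low values and 0 of these had an adjusted p under 0.05, where 0% of all tested genes did. At an unadjusted p under 0.05 limma found 0 of the 28, against 0.455% of tested genes on the higher and 1.04% on the lower side. The log2 fold change (Eldr cKO minus control) was above 0 for 19 of the 28 genes, against 45.5% of all tested genes, with a median of 0.36 against -0.13. With no filter on low values it was above 0 for 24 of the 38 genes (median 0.21), against 46.1% of all rows (median -0.11). The side of 0 moved with single libraries, for the 28 genes and for all tested genes alike. Without Eldr cKO 1, 12 of the 28 were above 0 against 31.6% of all tested genes, with medians of -0.11 and -0.72. Without control 2 these medians were 0.053 and -0.46, and without control 1 they were 0.77 and 0.12. With array quality weights 12 of the 28 were above 0 against 34.5% of all tested genes, with medians of -0.11 and -0.52. Among marker genes of other cell types, the 6 macrophage markers had a median log2 fold change of 1.35, 4 of them above 0, and C1qc had an unadjusted limma p of 0.0362 (adjusted p = 1.00). C1qc was at 0 in control 2 and 3, and C1qa (-0.98) and Adgre1 (-1.51) were below 0. The fibroblast markers had a median of -1.07, with 5 of 6 tested below 0. The median was 0.85 for 2 tested cartilage markers, 0.16 for smooth muscle and pericyte, 0.11 for heart muscle and 0.025 for endothelial markers. The part of these cell types in the matrix values was not tested. In control 1 and Eldr cKO 1 alone, a comparison of 1 library with another and without a test, 19 of the 28 were higher in Eldr cKO. All genes tested also had a positive median there (0.18, against 0.76 for the 28 genes).

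By class, 5 of 5 tested fibrillar chains had a log2 fold change above 0 (median 0.50), as did 2 of 3 type IV chains (median 0.034), 4 of 9 other collagen chains (median -0.019), 4 of 5 fibrous glycoproteins (median 0.45) and 4 of 6 enzymes and chaperones (median 0.24). Of the fibrillar chains, Col5a1 passed the filter only with its levels in both control 1 and Eldr cKO 1, the higher being in Eldr cKO 1. Col11a1 and Col5a3, which did not pass, had differences below 0, so that 6 of 8 were above 0 without the filter (median 0.38). The count of 5 was 3 without Eldr cKO 1 and 4 without control 3 or with array quality weights. With each library left out in turn the median of the 5 was 0.33 to 0.83, and the type IV chains, other collagens, glycoproteins and enzymes each had medians on both sides of 0. In these classes Col10a1, Col12a1 and Eln passed the filter only with their level in Eldr cKO 1. Col14a1 and Col6a1 passed only with that in control 1, and Col4a5 only with both. Col6a3 passed only with both and with its level in Eldr cKO 3. Without the filter 6 of 14 other collagen chains (median -0.099) and 5 of 6 glycoproteins (median 0.34) were above 0. The groups did not overlap for 2 of the 28 genes, Serpinh1 and Sparc, both higher in Eldr cKO. Over all tested genes this was so for 1.49% on the higher and 2.45% on the lower side, and 0 of the 28 were lower without overlap. A p under 0.05 stood in the authors' deposited table for 1 of the 38 genes, Sparc, and for 1.98% of all rows.

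**Figure D2:**
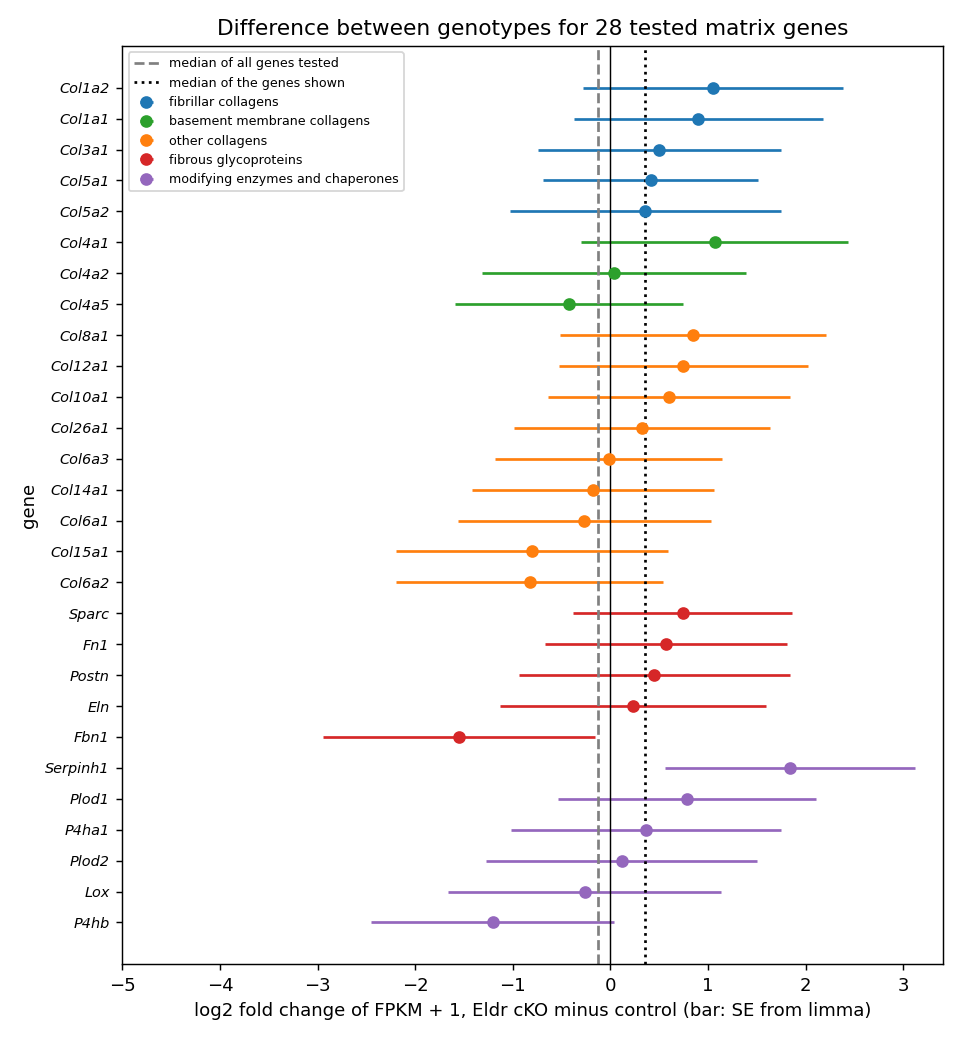
Points give the log2 fold change of FPKM + 1 (Eldr cKO minus control, 3 libraries a group) for the 28 tested genes, coloured by class, with SE bars from limma. The 5 fibrillar chains lie between 0.35 and 1.05, the dotted line marks the median of the genes shown (0.36) and the dashed line that of all tested genes (-0.13).

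The 250 bases before the RefSeq start site are shown for Serpinh1, whose groups did not overlap, and for Col3a1, the fibrillar chain with the highest mean level. They are from RefSeq, build GRCm38.p6, in the direction of the gene, and capitals mark motif matches. Serpinh1 is at chr7:99353240-99353489 (minus strand) and Col3a1 at chr1:45311288-45311537 (plus strand).
Serpinh1: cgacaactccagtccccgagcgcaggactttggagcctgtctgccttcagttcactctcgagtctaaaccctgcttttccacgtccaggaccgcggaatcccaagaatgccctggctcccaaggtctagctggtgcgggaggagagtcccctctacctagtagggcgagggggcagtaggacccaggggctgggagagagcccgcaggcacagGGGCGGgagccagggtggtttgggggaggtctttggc
Col3a1: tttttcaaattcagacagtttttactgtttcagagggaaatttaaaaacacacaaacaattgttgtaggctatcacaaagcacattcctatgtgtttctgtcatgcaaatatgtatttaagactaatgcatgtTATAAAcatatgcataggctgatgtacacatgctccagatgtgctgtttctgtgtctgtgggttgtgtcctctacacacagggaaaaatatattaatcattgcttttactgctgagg
The motifs searched on both strands were the GC box GGGCGG, the CCAAT box CCAAT, the TATA box TATAAA and the paired heat shock unit GAANNTTC or TTCNNGAA. GGGCGG had 1 match in Serpinh1 and TATAAA had 1 in Col3a1. Among 32851 RefSeq windows of that length, 32.7% held GGGCGG, 33.8% CCAAT, 12.4% TATAAA and 12.8% the heat shock unit. Of the 38 genes 27 matched a window by symbol. At 1 window for each of these genes, 18, 9, 4 and 1 held the respective motifs. The 32851 windows were not reduced to 1 per symbol, so these counts and the shares are in different units.

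Among the fibrillar chains, types I and III, which form the fibrils of skin, vessels and heart, were the most abundant. Col3a1, the sole chain of type III collagen (GRCm38 chromosome 1, 45311538 to 45349706), read 22.1, 29.2 and 17.6 FPKM across control libraries and 28.6, 42.9 and 27.1 FPKM across Eldr cKO libraries. The groups overlapped, since control 2 exceeded Eldr cKO 1 and 3. On the log2(FPKM + 1) scale this was 4.56 ± 0.35 (SD, n = 3) in controls and 5.05 ± 0.35 (SD, n = 3) in Eldr cKO, for a log2 fold change of 0.50 (limma SE 1.24). Col1a1, the alpha-1 chain of type I collagen (GRCm38 chromosome 11, 94936224 to 94953042), had control values of 12.4, 27.1 and 8.89 FPKM and Eldr cKO values of 51.3, 8.77 and 46.1 FPKM. Eldr cKO 1 and 3 were above every control and Eldr cKO 2 below every control. The log2 fold change of Col1a1 was 0.90 (limma SE 1.27). Col1a2, the alpha-2 chain (GRCm38 chromosome 6, 4504814 to 4541544), read 9.29, 4.53 and 7.07 FPKM across control libraries and 28.6, 12.8 and 9.06 FPKM across Eldr cKO libraries. Eldr cKO 1 and 2 exceeded every control, Eldr cKO 3 lay just below control 1, and the log2 fold change was 1.05 (limma SE 1.33, adjusted p = 1.00).

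The minor fibrillar chains were near the limit of detection. Col5a2, which regulates fibril diameter with Col5a1, had control values of 4.04, 5.10 and 0.805 FPKM and Eldr cKO values of 7.08, 3.996 and 1.87 FPKM, with overlap. Col5a1 had values above 0 only in both deep libraries, 1.39 FPKM in control 1 against 4.62 FPKM in Eldr cKO 1. Col11a1, a chain of cartilage fibrils, read 0.244, 0.616 and 2.21 FPKM across control libraries and 0, 0.327 and 0.319 FPKM across Eldr cKO libraries, on at most 2.22 estimated fragments a library. Col27a1, a fibrillar chain of cartilage, had control values of 0.538, 0 and 1.30 FPKM and Eldr cKO values of 0.402, 1.74 and 0.372 FPKM. Col5a3 was above 0 in 3 libraries, at up to 1.91 FPKM. Col5a3, Col11a1 and Col27a1 stayed below the filter and were not tested.

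Chain ratios within a library do not depend on its scaling. Type I collagen usually holds more alpha-1 than alpha-2 chains, and Col1a1 over Col1a2 was 1.33, 5.98 and 1.26 in the controls and 1.79, 0.685 and 5.08 in Eldr cKO. The ratio was above 1 in 5 of 6 libraries, and Eldr cKO 2, the exception, held an estimated 2.71 fragments of Col1a1 and 3.57 of Col1a2. The mean log2 ratio was 1.11 ± 1.28 (SD, n = 3) in controls and 0.88 ± 1.45 (SD, n = 3) in Eldr cKO (exact two-sided permutation test, p = 0.90, the smallest possible being 0.10). Col3a1 over Col1a1 was 1.79, 1.08 and 1.98 in the controls and 0.558, 4.89 and 0.589 in Eldr cKO. It lay above 1 in every control and below 1 in Eldr cKO 1 and 3, while Eldr cKO 2 was highest. The mean log2 ratio was 0.64 ± 0.47 (SD, n = 3) in controls and 0.23 ± 1.79 (SD, n = 3) in Eldr cKO (exact two-sided permutation test, p = 0.80). Benjamini-Hochberg adjustment over these 2 ratios gave 0.90 for each. Both differences changed sign when a single library was left out: Col1a1 over Col1a2 went from -0.23 to 0.51 without control 2 and to 0.49 without Eldr cKO 2, and Col3a1 over Col1a1 from -0.42 to 0.12 without Eldr cKO 1 and to 0.080 without Eldr cKO 3.

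**Figure D3:**
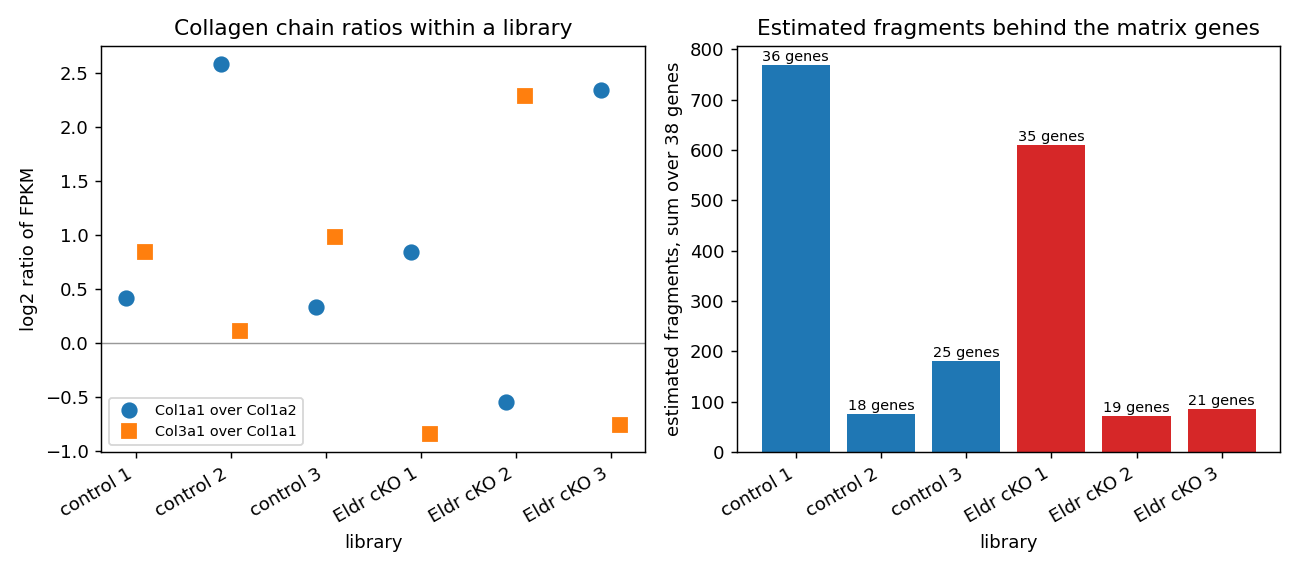
Left, the log2 ratio of FPKM of Col1a1 over Col1a2 (circles) and of Col3a1 over Col1a1 (squares) in each library, with 0 for equal levels; right, bars from 0 give the estimated fragments summed over the 38 genes in each library, with the number of genes above 0. The 3 libraries whose Col1a1 over Col1a2 ratio lay outside 1.26 to 1.79 were those with the fewest fragments, 75.1 in control 2, 71.3 in Eldr cKO 2 and 84.7 in Eldr cKO 3.

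Type IV collagen, the network former of basement membranes, was carried by the alpha-1 and alpha-2 chains, which are encoded head to head and in the table share 22 bp at their start (GRCm38 chromosome 8, Col4a1 at 11198423 to 11312826 on the minus and Col4a2 at 11312805 to 11449287 on the plus strand). Col4a1 read 18.9, 0 and 3.53 FPKM across control libraries and 39.6, 5.09 and 2.36 FPKM across Eldr cKO libraries, a log2 fold change of 1.07 (limma SE 1.37) that was -0.016 without control 2. Col4a2 had control values of 24.7, 6.12 and 2.27 FPKM and Eldr cKO values of 41.7, 0 and 14.0 FPKM. For both chains control 1 and Eldr cKO 1 were highest and the groups overlapped. In these 2 deep libraries Col4a1 over Col4a2 was 0.768 and 0.948, while in control 3 and Eldr cKO 3 it was 1.55 and 0.168, on 0.88 to 5.10 estimated fragments a chain. Col4a3, a chain of specialised basement membranes such as that of the kidney glomerulus, ranged from 0.201 to 1.03 FPKM, with an estimated 1.73 fragments in control 1 and less than 1 in each other library. Col4a5, its partner chain, was above 0 in 3 libraries, highest in control 1 at 4.65 FPKM.

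Among the other collagens, type VI microfibril chains were seen mainly in the 2 deep libraries and were higher in control 1 than in Eldr cKO 1. Col6a1 reached 11.1 FPKM in control 1 and, in Eldr cKO 1, 5.97 FPKM, with 0 in the other 4. Col6a2 read 9.03, 0 and 2.82 FPKM across control libraries and 5.86, 0 and 0 FPKM across Eldr cKO libraries, a log2 fold change of -0.83 (limma SE 1.37). Col6a3 had control values of 3.85, 0 and 0 FPKM and Eldr cKO values of 0.873, 0 and 1.49 FPKM. Against the equal chain ratio of the type VI trimer, Col6a1 over Col6a2 was near equal, at 1.23 in control 1 and 1.02 in Eldr cKO 1. Col6a3 over Col6a1 was far from equal, at 0.346 in control 1 and 0.146 in Eldr cKO 1. In Eldr cKO 1 Col6a3 stood on an estimated 1.71 fragments. Each of these chains overlapped between groups. Col10a1, the collagen of hypertrophic cartilage, was found only in both deep libraries, with 2.72 FPKM in control 1 against 11.9 FPKM in Eldr cKO 1. Col8a1, a vascular and corneal chain, had 5.42 FPKM in control 1 and 0 in control 2 and 3, with Eldr cKO values of 7.30, 0 and 3.51 FPKM. Col12a1 and Col14a1, which sit on fibril surfaces, were above 0 in 4 and 2 libraries at up to 4.97 and 7.24 FPKM. Col15a1 and Col18a1, collagens of the basement membrane zone, were above 0 in 3 and 2 libraries at up to 12.9 and 2.05 FPKM. Col6a6 was above 0 in control 1 and Eldr cKO 1, at up to 1.74 FPKM, and Col22a1 and Col28a1 in Eldr cKO 1 alone, at 2.27 and 4.26 FPKM.

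Col26a1, Col25a1, Col11a1 and Lox were each lowest in FPKM in control 1 and Eldr cKO 1, the libraries in which most genes of the set were detected. Col26a1 was the highest of these by mean FPKM. It read 2.06, 17.6 and 36.5 FPKM across control libraries and 0.716, 76.3 and 30.6 FPKM across Eldr cKO libraries. In Eldr cKO 2 it stood on an estimated 11.1 fragments and the other collagen chains, of which it was the highest, held 50.9% of all collagen FPKM. In Eldr cKO 1 it stood on 0.39 fragments. Gm10800 was lowest in the same 2 libraries, with 9208 FPKM for control 1 and 7113 FPKM for Eldr cKO 1 against 26167 to 139652 FPKM in the other 4. The part of repeat-rich sequence in this value was not tested. Col25a1, a transmembrane collagen of neurons, stood at 0.0246 FPKM in control 1 and 0 in Eldr cKO 1 and reached 1.39 FPKM in control 2, on less than 1 estimated fragment in every library. Lox was lowest among controls in control 1 by FPKM but not by fragments. It stood on an estimated 3.65, 1.17 and 1.64 fragments in the controls and on 0, 0.99 and 0.94 in Eldr cKO.

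**Figure D4:**
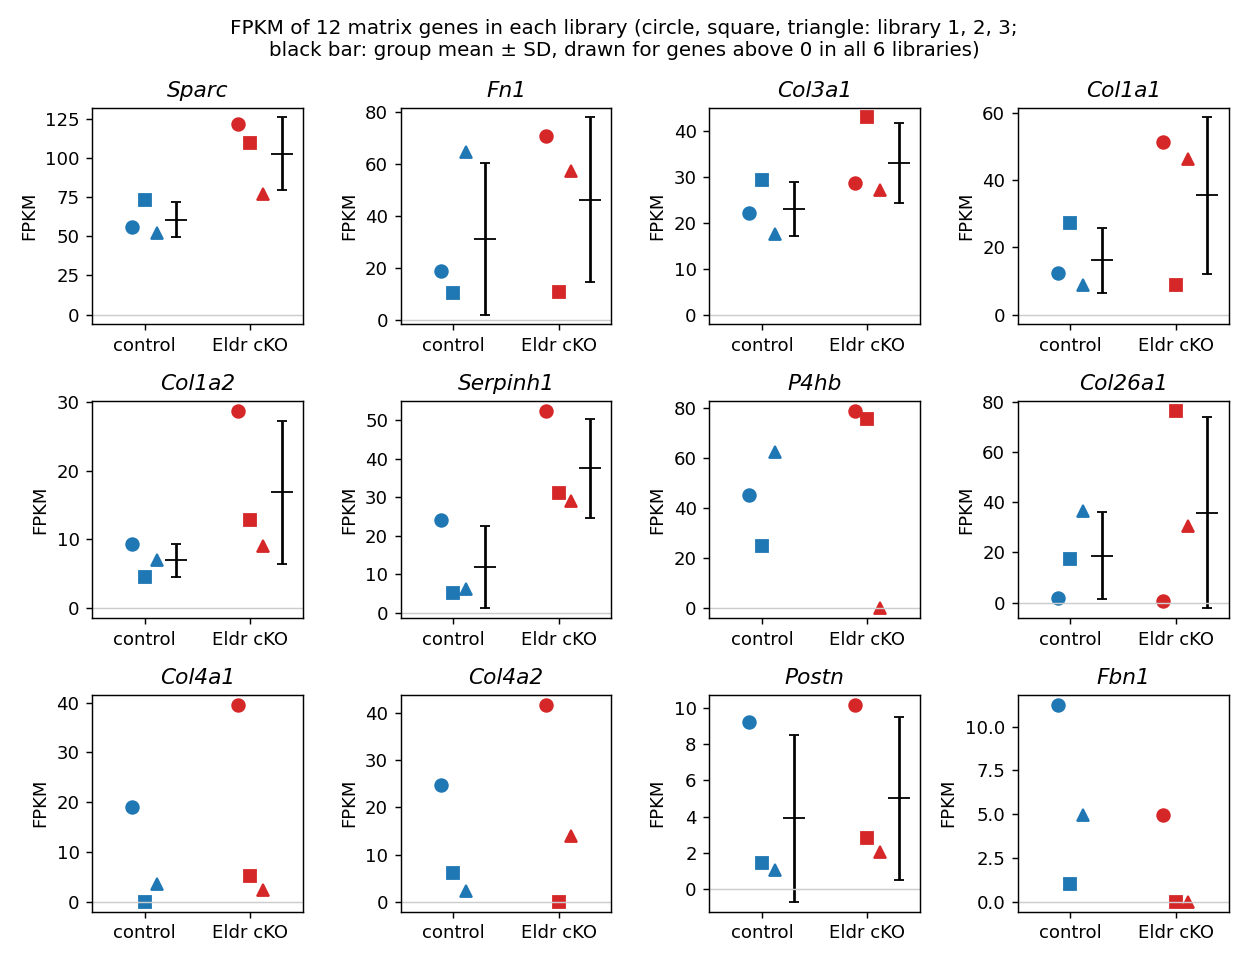
Each panel gives the FPKM of 1 gene in the control (blue) and Eldr cKO (red) libraries, with circle, square and triangle for libraries 1, 2 and 3 and black bars for mean ± SD where all 6 values are above 0. The groups are apart for Sparc (52.3 to 73.4 against 76.9 to 122 FPKM) and Serpinh1 (5.18 to 24.2 against 29.1 to 52.3 FPKM) and overlap in the other 10 panels.

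Of the fibrous glycoproteins, Sparc was the most abundant gene of the set. Sparc encodes a collagen-binding protein of bone and of remodelling tissue (GRCm38 chromosome 11, 55394500 to 55423183) and ranked 213 of 12560 rows by mean FPKM. It had control values of 56.1, 73.4 and 52.3 FPKM and Eldr cKO values of 122, 109 and 76.9 FPKM, so every Eldr cKO library was above every control. On the log2(FPKM + 1) scale Sparc was 5.93 ± 0.25 (SD, n = 3) against 6.67 ± 0.34 (SD, n = 3), a log2 fold change of 0.74. The limma SE was 1.12 and the adjusted p 1.00, while the SE from these 6 libraries alone was 0.25 and an exact two-sided permutation test gave p = 0.10, the smallest that 3 against 3 allow. Groups of 3 without overlap always give this exact p, so it adds nothing to the lack of overlap. The authors' deposited table gave Sparc p = 0.0398 and q = 0.761. After rescaling each library to a common sum without mitochondrial and repeat-rich genes the difference was 0.80. On that scale the groups overlapped for Sparc, with control 2 above Eldr cKO 1 and Eldr cKO 3. Without the rescaling and with each library left out in turn the difference was 0.61 to 0.93. Estimated fragments behind Sparc were 60.2, 13.5 and 15.8 in the controls and 54.2, 13.1 and 9.97 in Eldr cKO. In Eldr cKO 3, 1 fragment of Sparc stood for 7.72 FPKM, and that library exceeded control 2 by less than this.

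Fn1, which encodes fibronectin (GRCm38 chromosome 1, 71585520 to 71653200), read 18.7, 10.4 and 64.6 FPKM across control libraries and 70.8, 10.5 and 57.3 FPKM across Eldr cKO libraries. Control 3 lay between Eldr cKO 1 and 3, control 2 was as low as Eldr cKO 2, and the groups overlapped. Postn, which encodes periostin, a matricellular protein of injured heart and periosteum, had control values of 9.19, 1.45 and 1.06 FPKM and Eldr cKO values of 10.2, 2.82 and 2.06 FPKM. Library 1 of each group was highest for Postn, and the groups overlapped. Fbn1, the main protein of microfibrils, read 11.3, 1.04 and 4.94 FPKM across control libraries and 4.95, 0 and 0 FPKM across Eldr cKO libraries. On the log2(FPKM + 1) scale its log2 fold change was -1.55 (limma SE 1.39, adjusted p = 1.00), with overlap because Eldr cKO 1 exceeded control 2 and 3. Eln, which encodes elastin, was above 0 in 4 libraries, highest in Eldr cKO 1 at 15.5 FPKM. Tnc, which encodes tenascin-C, reached 2.14 FPKM in control 1 and, in Eldr cKO 1, 2.99 FPKM, with 0 in the other 4.

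Among the genes that modify collagen, Serpinh1 was the one whose groups did not overlap. Serpinh1 encodes HSP47, the chaperone that binds procollagen in the endoplasmic reticulum (GRCm38 chromosome 7, 99345376 to 99353239). It had control values of 24.2, 5.18 and 6.26 FPKM and Eldr cKO values of 52.3, 31.2 and 29.1 FPKM, and every Eldr cKO library was above every control. On the log2(FPKM + 1) scale Serpinh1 was 3.38 ± 1.11 (SD, n = 3) against 5.22 ± 0.45 (SD, n = 3), a log2 fold change of 1.84. The limma SE was 1.28 and the adjusted p 1.00, the SE from these 6 libraries alone was 0.69, and an exact two-sided permutation test gave p = 0.10, again the smallest possible and again set by the lack of overlap. The authors' deposited table gave Serpinh1 p = 0.0563 and q = 0.761. The log2 fold change was 1.91 after the rescaling and 1.46 to 2.48 with each library left out in turn. Estimated fragments behind Serpinh1 were 25.6, 0.94 and 1.87 in the controls and 23.0, 3.70 and 3.73 in Eldr cKO, so its low values stood on very few fragments. For scale, 1 fragment of Serpinh1 stood for 8.43 FPKM in Eldr cKO 2 and 7.81 FPKM in Eldr cKO 3. Each of these libraries exceeded control 1 by less than its 1 fragment.

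P4hb, which encodes protein disulfide isomerase, the beta subunit of prolyl 4-hydroxylase, read 45.2, 24.7 and 62.6 FPKM across control libraries and 78.8, 75.7 and 0 FPKM across Eldr cKO libraries. Eldr cKO 1 and 2 were above every control, and the value of 0 in Eldr cKO 3 set the log2 fold change of -1.21 (limma SE 1.24), which was 0.89 without that library. P4ha1, the catalytic alpha subunit, had control values of 9.80, 0 and 5.54 FPKM and Eldr cKO values of 26.999, 0 and 4.34 FPKM. Plod2, a lysyl hydroxylase, read 2.65, 2.57 and 4.12 FPKM across control libraries and 8.04, 1.18 and 3.29 FPKM across Eldr cKO libraries. Lox, the lysyl oxidase that cross-links collagen and elastin, had control values of 1.65, 3.08 and 2.63 FPKM and Eldr cKO values of 0, 3.998 and 3.53 FPKM. These 4 genes overlapped between groups. Plod1, another lysyl hydroxylase, was above 0 in 3 libraries at up to 5.59 FPKM.

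As a share of the FPKM outside the mitochondrial and repeat-rich genes, the 38 genes summed to 0.269%, 0.355% and 0.234% in the controls and to 0.448%, 0.556% and 0.376% in Eldr cKO. Every Eldr cKO library was above every control on this scale, and so it was without Sparc (0.192% to 0.240% against 0.284% to 0.402%). In summed FPKM as deposited the groups overlapped, at 338, 227 and 293 in the controls and 664, 395 and 315 in Eldr cKO. The fibrillar chains summed to 51.2, 66.6 and 39.0 FPKM in the controls and 123, 70.5 and 84.8 FPKM in Eldr cKO, and Col1a1, Col1a2 and Col3a1 held 60.9 of the 66.6 FPKM in control 2. On the share scale the fibrillar chains overlapped, with control 2 at 0.104% above Eldr cKO 1 at 0.0828%. The type IV chains, the other collagens and the enzymes and chaperones overlapped too, the last with Eldr cKO 3 at 0.0481% below every control. The fibrous glycoproteins did not (0.0795% to 0.135% against 0.153% to 0.173%). Without Sparc the fibrous glycoproteins overlapped as well, with Eldr cKO 2 below every control. All collagen chains were at 0.0687% to 0.164% against 0.165% to 0.218%, and overlapped without Col26a1 (0.0396% to 0.137% against 0.111% to 0.181%). The type IV chains summed to 48.7, 6.74 and 6.36 FPKM in the controls and to 83.7, 5.61 and 17.4 FPKM in Eldr cKO. These sums describe the set and were not tested.

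Other genes of collagen biology did not pass limma's test in either direction. Of 26 further collagen processing genes 16 were tested and 0 were called (11 above and 5 below 0, median log2 fold change 0.14), among them Ppib, the prolyl isomerase cyclophilin B, at 19.3, 155 and 38.8 FPKM in the controls and 39.7, 58.4 and 55.8 FPKM in Eldr cKO. Of 15 basement membrane partners 9 were tested and 0 called (5 above and 4 below, median 0.17). In that list Lamb1, the laminin beta-1 chain, read 9.67, 1.28 and 4.98 FPKM across control libraries and 4.78, 0 and 0 FPKM across Eldr cKO libraries. Of 26 small proteoglycans and elastic fibre or matricellular genes 21 were tested and 0 called (8 above and 13 below, median -0.27). Efemp1, which encodes fibulin-3, had control values of 6.47, 18.0 and 3.79 FPKM and Eldr cKO values of 2.57, 0 and 0 FPKM, without overlap (log2 fold change -2.52, limma SE 1.39, adjusted p = 1.00). Over all tested genes 2.45% were lower without overlap. In Eldr cKO 2 and 3, 1 fragment on a 2 kb transcript stood for 9.59 and 8.88 FPKM, above the values in control 1 and control 3. The part of this floor in the values of 0 was not tested.

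Of 15 genes of collagen turnover 8 were tested and 0 called (5 above and 3 below, median 0.68). Mrc2, the endocytic collagen receptor, read 0.323, 0 and 0 FPKM across control libraries and 1.56, 2.86 and 2.69 FPKM across Eldr cKO libraries, without overlap (log2 fold change 1.60, limma SE 1.24, adjusted p = 1.00). Of all tested genes 1.49% were higher without overlap. The authors' deposited table gave Mrc2 p = 0.00227, and a p under 0.05 for 1.98% of all rows. These levels were near the limit of detection. For scale, 1 fragment on a 2 kb transcript stood for 6.24 FPKM in control 2, 9.59 FPKM in Eldr cKO 2 and 8.88 FPKM in Eldr cKO 3. Timp1, a metalloproteinase inhibitor, had control values of 2.44, 22.8 and 8.53 FPKM and Eldr cKO values of 24.4, 32.0 and 20.0 FPKM, with overlap at control 2. Of 9 collagen receptor genes 5 were tested (3 above and 2 below, median 0.16), and of 10 genes of TGF-beta input, the main known inducer of collagen transcription, 9 were tested (3 above and 6 below, median -0.43), with 0 called in both lists and at an unadjusted p under 0.05 in none of the 6 lists.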

How the data were processed

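Per the labels' protocols, Trizol RNA was depleted of ribosomal RNA or selected for poly(A), and both a TruSeq and a KAPA stranded kit are named. The submitters' processing notes name cutadapt, HISAT2 2.0.5, StringTie and the human build hg19. The deposited table holds mouse gene IDs, and the loci of 37 of the 38 genes equalled those of GENCODE M21 on GRCm38 (Lox did not), so that build is given. FPKM values per library were made by the authors and used as deposited. The group columns and the fold change on the log2 scale, the fold ratio and the p-value and q-value columns are the authors' own, deposited with the table.

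The model, in limma 3.58.1 (R 4.3.3), took log2(FPKM + 1), a scale that shrinks changes of low genes, for every gene whose 6-library mean reached 1 FPKM, with genotype alone as factor and an intensity trend. Its prior degrees of freedom came out infinite, so each limma SE came from the trend over genes and not from the gene's own spread. Depth was estimated in Python 3.11.15 from genes with 1 annotated transcript as the most frequent 1 / (FPKM × length), at a tolerance of 3%, and no count model was fitted because whole reads could not be recovered for genes with several transcripts. Exact permutation tests used scipy 1.17.1. Repeat-rich genes were predicted genes above 1000 FPKM in at least 1 library. Members, classes and lists were chosen with earlier results of these data known. Genes above 0 in at least 5 libraries, a chosen set of 19 and the 3 with the smallest p in each direction were named with every value; the others are given by range. Efemp1 and Mrc2 were among the 3 with the smallest p per list and direction, and Ppib was chosen after its values were seen. Alternatives were other pseudocounts, filters, normalizations and variance settings, each library left out and the replicate number as a block.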

Additional observations from a re-analysis of the deposited data

How the results depend on the processing

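The limits are depth and library content: most genes stood on under 3 estimated fragments in 4 of 6 libraries, and a miss of the threshold does not show equal levels. The 16 alternatives called 0 of the 38 genes. Over all tested genes the count of calls was 0 except for 6 with array quality weights and 0 to 2 with each library left out. The median log2 fold change of the 28 genes was 0.36, 0.39 after rescaling, 0.53 after quantile normalization (which moved the median of all genes from -0.13 to 0.013), -0.11 with array quality weights and -0.11 to 0.77 with each library left out.

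Col1a1, Col1a2, Col3a1, Col6a2, Fbn1, Fn1, Serpinh1 and Sparc kept their direction in the alternatives run, and 13 of 21 named tested genes did not. The cause was not tested. Of those that kept it, with each library left out Fn1 ranged from 0.017 to 1.40, Col6a2 from -1.75 to -0.041, Fbn1 from -2.41 to -0.94, Col1a1 from 0.47 to 1.68, Col1a2 from 0.61 to 1.39 and Col3a1 from 0.30 to 0.68. At a pseudocount of 0.1 Fbn1 (-3.45), P4hb (-2.29) and Col4a1 (2.07) differed by more than Serpinh1 (1.96). The ranges that follow are with each library left out in turn and leave the other alternatives aside. Of those that turned, log2 fold changes ranged from -0.63 to 1.23 for Col10a1, -0.80 to 1.94 for Col26a1, -0.016 to 2.14 for Col4a1, -1.12 to 1.59 for Col4a2, -0.42 to 0.83 for Col5a1, -0.19 to 0.74 for Col5a2 and -1.20 to 0.93 for Col6a1. They ranged from -0.40 to 0.74 for Col6a3, -0.68 to 0.48 for Lox, -0.84 to 1.56 for P4ha1, -2.27 to 0.89 for P4hb, -0.41 to 0.62 for Plod2 and -0.12 to 1.18 for Postn. With each library left out the chain ratio differences ranged from -0.96 to 0.51 for Col1a1 over Col1a2 and from -1.45 to 0.12 for Col3a1 over Col1a1. With array quality weights Col10a1 was at -0.29, Col4a1 at -0.026, Col4a2 at -0.51, Col5a1 at -0.19, Lox at 0.19, P4ha1 at -0.40, Plod2 at -0.066 and Postn at -0.15. Col4a2 was at -0.88 and -0.20 and Col6a3 at 0.66 and 0.11 with pseudocounts of 0.1 and 0.5, and both turned after rescaling (-0.090 and 0.042). After quantile normalization Col6a3 was at 0.27 and Lox at 0.34.

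Libraries with the same replicate number correlated in their deviations from the group means at 0.28, 0.15 and 0.095, the highest correlation of each, but the labels give the numbers no meaning. With the replicate block 0 genes were called and the median of the 28 genes was 0.36.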
